A study of Homo sapiens with 12 samples.

Results

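Keratin messenger RNA was followed in HCT116, a long-established line of human colorectal carcinoma cells, across 6 groups that differed in plasmid and in doxorubicin. The genes described are 10 keratins of simple and stratified epithelium: KRT8, KRT18, KRT19, KRT20, KRT7, KRT10, KRT15, KRT17, KRT23 and KRT80. They were taken as every row of the deposited FPKM table (fragments mapped to a locus, scaled by transcript length and library size) whose gene names include 1 of the 10. They fell on 9 of 57908 loci, because KRT15 and KRT19 share a locus. KRT7 shares its locus with KRT86, a hair keratin, and KRT18 shares its locus with AC107016.2, so a value printed for these genes belongs to the whole locus. All 9 loci passed the filter of at least 1 FPKM in at least 2 samples, which 15833 loci passed. KRT17 reached 1 FPKM in only 1 of the 6 samples without drug and so could not have passed without its values with doxorubicin.

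Cells carried a control plasmid (called GFP in the sample titles and an empty vector in the design text), an NSE4A-flag plasmid or an SMC5-flag plasmid. SMC5 is an arm of the SMC5/6 complex, a ring-shaped ATPase of DNA repair, and NSE4A, its kleisin, holds the ring shut. Each plasmid was combined with PBS, the vehicle, or with 1000 nM doxorubicin for 24 h, a drug that intercalates into DNA and poisons topoisomerase II. The control, NSE4 and SMC5 cells therefore all passed through transfection, and every group had 2 libraries.

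Keratins are the intermediate filament proteins of epithelia. A filament pairs an acidic type I keratin (here KRT10, KRT15, KRT17, KRT18, KRT19, KRT20 and KRT23) with a basic type II keratin (here KRT7, KRT8 and KRT80), and an unpaired chain is generally unstable. KRT8 and KRT18 are the main pair of simple epithelium such as the gut lining, KRT19 accompanies them, and KRT20 is used in pathology as a marker of differentiated intestinal epithelium and of colorectal carcinoma. The type I genes lie together on chromosome 17 and the type II genes on chromosome 12, with KRT18, a type I gene, next to KRT8 as the exception.

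The libraries held an estimated 13.2 M to 19.3 M fragments. The estimate is the commonest library size implied when each nonzero FPKM of a gene with 1 long transcript is taken as 1 fragment. The 2 columns of doxorubicin-treated SMC5 cells were more alike than the libraries of any other pair. Their Pearson r on the log2(FPKM + 1) scale was 0.99943, against 0.98682 to 0.98805 in the other 5 pairs. Only 7 loci were above 0 in 1 of the columns and 0 in the other, against 4216 to 5291 in the other pairs. At 1091 loci both columns listed exactly the same nonzero FPKM, which happened at 0 loci elsewhere. Between 0.1 and 0.3 FPKM the SD of their log2 ratio was 0.16, against 1.11 to 1.18, a scatter below the sampling noise that separate libraries showed there. At high levels they did differ beyond counting error: column 2 exceeded column 1 at KRT8 (1799 against 1556 FPKM), at KRT18 (472 against 401) and at the KRT15 and KRT19 locus (1374 against 1155). They were counted as 1 sample, their mean, which leaves 11 samples: 6 with PBS and 5 with doxorubicin. The SMC5 locus stood at 811 to 979 FPKM in the 3 samples with its plasmid and at 7.02 to 34.4 FPKM in the other 8. NSMCE4A, which encodes NSE4A, stood at 4069 to 6287 FPKM in its 4 samples and at 32.6 to 89.4 FPKM in the other 7. The epithelial markers EPCAM and CDH1 were at 123 to 146 and at 24.2 to 30.1 FPKM in all 11 samples, while the intestinal transcription factor CDX1 was listed at 0 in 9 of 11. CDH17, of the same marker list, was at no more than 1.53 FPKM at either of its loci. CDX2 and VIL1, also of that list, are given with the intestinal genes below. Of 8 loci that mark fibroblasts, blood or endothelial cells, COL1A1 was at 15.6 to 27.0 FPKM and the others at no more than 1.21. Among the others PDGFRB, a receptor of fibroblasts and pericytes, was at 0.0131 to 0.158 FPKM in the PBS samples and at 0.424 to 1.21 FPKM in the doxorubicin samples, which did not overlap. The sum of those 8 loci was 18.0 to 25.7 FPKM with PBS and 16.2 to 28.0 FPKM with doxorubicin, and the part of these cell types in the keratin values was not tested.

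Promoter sequence was at hand only for KRT8, KRT20 and KRT10 among the 10 keratins, and these 3 are shown for that reason. Whether the sequences bear on the drug response was not tested. The 250 bases before each RefSeq start site (build GRCh38.p14, all on the minus strand, printed 5′ to 3′ in the direction of transcription) are at chr17:40885243-40885492 for KRT20, at chr12:52926470-52926719 for KRT8 and at chr17:40822615-40822864 for KRT10. Capitals mark matches on either strand to any of 5 short motifs. The TATA box, which places the start of transcription in some promoters, was searched as TATAAA. The AP-1 motif, bound by stress-activated factors of the FOS and JUN families, was searched as TGANTCA. The GC box, bound by SP1 and its relatives, was searched as GGGCGG. The motif of the CDX homeobox factors, which drive intestinal genes, was searched as TTTATG. The last is a single p53 element, one arm of the paired site that p53 binds. E-boxes, CANNTG, are counted but left in lower case.
KRT20: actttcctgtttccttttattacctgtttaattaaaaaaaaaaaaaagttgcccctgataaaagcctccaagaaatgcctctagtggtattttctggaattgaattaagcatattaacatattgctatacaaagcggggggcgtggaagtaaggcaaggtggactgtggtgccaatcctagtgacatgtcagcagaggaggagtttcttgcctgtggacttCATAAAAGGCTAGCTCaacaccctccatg
KRT8: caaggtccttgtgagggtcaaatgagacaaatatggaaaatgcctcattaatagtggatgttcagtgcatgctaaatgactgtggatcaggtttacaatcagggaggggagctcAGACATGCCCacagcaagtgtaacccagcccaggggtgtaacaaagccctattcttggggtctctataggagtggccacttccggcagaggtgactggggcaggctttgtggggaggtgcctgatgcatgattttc
KRT10: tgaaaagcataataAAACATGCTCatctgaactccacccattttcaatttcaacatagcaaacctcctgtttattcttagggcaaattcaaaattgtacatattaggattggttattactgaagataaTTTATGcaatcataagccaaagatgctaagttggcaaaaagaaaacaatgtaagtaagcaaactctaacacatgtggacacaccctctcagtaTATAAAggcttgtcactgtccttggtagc
The KRT20 window held 1 CDX match, 29 bases before the start, directly followed by 1 single p53 element, 23 bases before the start, so the capitals run on from one to the other without overlap. It held no match to the TATA box, AP-1, GC box or E-box letters. The KRT8 window held 1 single p53 element, 136 bases before the start, and 2 E-boxes. In the KRT10 window there were a TATA box 29 bases before the start, a CDX match at 122 bases, a single p53 element at 236 bases and 3 E-boxes. Of 27305 promoter windows of the same length, 10% held the CDX letters, 5.53% the single p53 element, 11.1% the TATA box, 6.6% the AP-1 letters, 42.3% the GC box and 62.2% an E-box. G and C made up 41.2% of the KRT20 window, 50.4% of the KRT8 window and 34.8% of the KRT10 window, against a median of 58% over all windows. A match is a run of letters and not a measured binding site. KRT18, KRT19, KRT7, KRT15, KRT17, KRT23 and KRT80 are named without sequence.

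The keratin pool of cells without drug was made of 3 loci. In the 6 PBS samples the KRT15 and KRT19 locus had a median of 1519 FPKM (1333 to 1686), KRT8 one of 1284 FPKM (1205 to 1364) and KRT18 one of 645 FPKM (604 to 694). These 3 loci supplied 97.6% to 98.0% of the FPKM summed over the 9 loci. KRT10, a keratin of the upper epidermis, followed with a median of 52.4 FPKM (46.2 to 62.3). KRT23, a type I keratin, was at 11.8 FPKM (10.6 to 12.6) and the KRT7 locus, whose type II keratin is found in ducts and glands, at 8.26 FPKM (6.00 to 9.95). KRT80, a type II keratin, was at 1.59 FPKM (1.46 to 1.86), KRT20 at 0.961 FPKM (0.50 to 1.11) and KRT17, a keratin of basal and injured epithelium, at 0.533 FPKM (0.157 to 1.03). Each locus was above the next in all 6 samples, although the ranges of the KRT15 and KRT19 locus and KRT8 overlapped, as did those of KRT20 and KRT17.

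With doxorubicin the order changed at the top and closed up at the bottom. KRT8 was first in all 5 samples, with a median of 1601 FPKM, above the KRT15 and KRT19 locus with 1175 FPKM and KRT18 with 430 FPKM. KRT10 (33.7 FPKM) and KRT23 (28.3 FPKM) came next, and their ranges no longer lay far apart: 32.3 to 38.8 FPKM for KRT10 and 25.5 to 30.5 FPKM for KRT23. The KRT7 locus exceeded KRT80 in 4 of 5 samples, and KRT20 exceeded KRT17 in 3 of 5, so neither pair was ordered beyond its spread. The plot of keratin levels by sample shows these values.

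**Figure D1:**
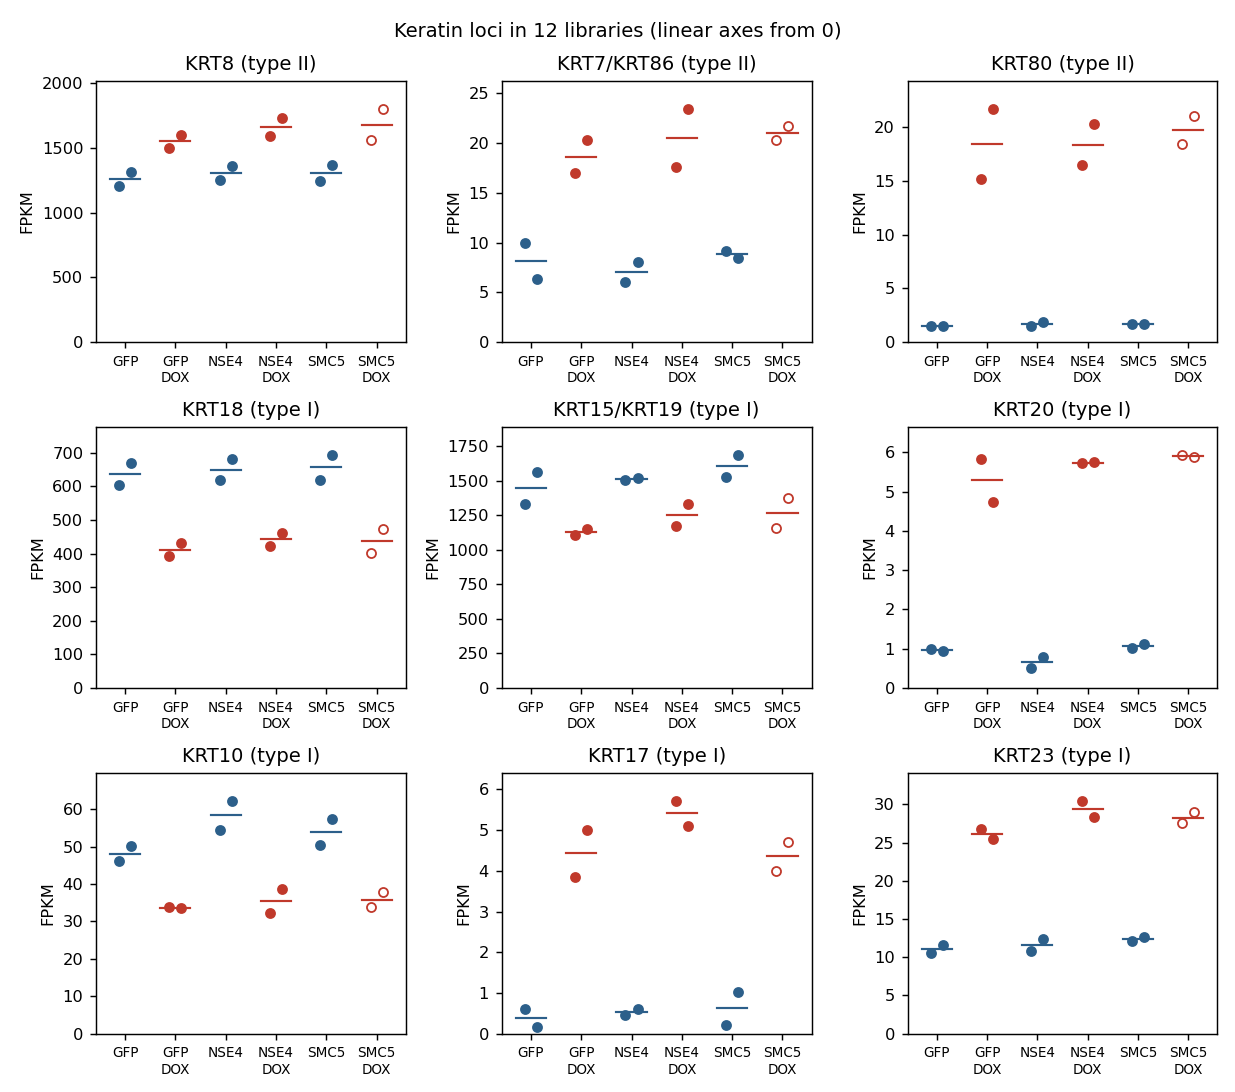
FPKM of the 9 keratin loci by group, on linear axes from 0; filled points are samples (blue PBS, red doxorubicin), open circles are the near-identical columns of doxorubicin-treated SMC5 cells that were counted as 1 sample, and bars are group means. KRT20, KRT17, KRT80, KRT23, KRT7 and KRT8 were higher in every doxorubicin sample than in any PBS sample, and KRT18, KRT10 and the KRT15 and KRT19 locus were lower (the last only with the 2 SMC5 columns averaged, since 1 open circle, at 1374, lies above the lowest PBS sample, at 1333, and its direction reversed under quantile normalization).

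At each of the 9 loci the 6 PBS samples and the 5 doxorubicin samples did not overlap, 6 loci being higher and 3 lower with the drug (the KRT15 and KRT19 locus reversed under quantile normalization). At the KRT15 and KRT19 locus this rests on averaging the SMC5 doxorubicin columns, since column 2, at 1374 FPKM, lay above GFP replicate 1 with PBS, at 1333 FPKM. Over all tested loci 40.6% showed such separation, 22% with doxorubicin higher and 18.6% with doxorubicin lower. In these bulk libraries a loss or gain of cells of 1 kind and a change of RNA per cell cannot be told apart. In the test of the drug within GFP cells, limma called 9 of the 9 loci (6 rose, 3 fell), against 31.1% of all tested loci, where 17% rose and 14.1% fell. In NSE4 cells 8 were called (6 rose, 2 fell), against 30.2% (16.3% rose, 13.9% fell), and in SMC5 cells 7 (5 rose, 2 fell), against 20.9% (11% rose, 9.87% fell). The treated SMC5 arm is a single sample that is assumed to vary like the other groups. A fit of the SMC5 groups alone called no locus at all, keratin or other, so it says nothing particular to keratins. A call means an adjusted p under 0.05 (Benjamini-Hochberg over all tested loci). KRT17 is among the rises in each cell group, although it passed the filter only with the help of its doxorubicin values. The median log2 change of the 9 loci was 1.13, 1.27 and 1.13 in GFP, NSE4 and SMC5 cells, and that of all tested loci 0.02, 0.03 and 0.02. The count in GFP cells fell without any 1 of its 4 libraries, most without GFP doxorubicin replicate 2. It also fell in NSE4 cells without NSE4 replicate 1 or NSE4 doxorubicin replicate 2, and in SMC5 cells without either SMC5 replicate. The share of all tested loci called was not computed for these settings. A loss of power over all loci therefore cannot be told from weak calls at the keratins. Whether the paired libraries of each group were grown as separate cultures is not stated, so every p-value reflects the spread among these libraries alone, and that spread could be technical.

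KRT20, the intestinal marker, was low without drug and several-fold higher with it. It stood at 0.981 and 0.942 FPKM in GFP cells, 0.50 and 0.796 in NSE4 cells and 1.03 and 1.11 in SMC5 cells. With doxorubicin it stood at 5.83 and 4.74 FPKM in GFP cells, 5.72 and 5.77 in NSE4 cells and 5.91 in SMC5 cells. The lowest doxorubicin sample was GFP replicate 2, and it still lay above every PBS sample. The ratio of the mean FPKM of the 5 doxorubicin samples to that of the 6 PBS samples was 6.27. On the log2(FPKM + 1) scale, which understates changes of low genes, KRT20 rose by 1.68 ± 0.15 (SE; limma, adjusted p = 2.13e-04) in GFP cells, by 2.04 ± 0.15 (9.61e-05) in NSE4 cells and by 1.74 ± 0.19 (8.07e-04) in SMC5 cells. Ordered by rise in GFP cells, KRT20 was number 205 of 15833 loci. The PBS values rest on an estimated 13 to 32 fragments a library and the doxorubicin values on 116 to 185, so the low level carries more counting error.

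KRT80 moved furthest of the 9 loci. Without drug it was at 1.5 and 1.54 FPKM in GFP cells, 1.46 and 1.86 in NSE4 cells and 1.64 and 1.67 in SMC5 cells. With doxorubicin it reached 15.1 and 21.7 FPKM in GFP cells, 16.4 and 20.3 in NSE4 cells and 19.7 in SMC5 cells. The 2 GFP doxorubicin libraries were the lowest and the highest of the treated samples, and all treated samples lay far above the untreated ones. The ratio of means was 11.6, and the log2 rise was 2.92 ± 0.18 in GFP cells (limma, adjusted p = 5.33e-05), 2.86 ± 0.18 in NSE4 cells (5.99e-05) and 2.96 ± 0.22 in SMC5 cells (2.61e-04). It was number 27 of 15833 by rise in GFP cells. KRT80 has the KRT7 gene as its neighbour on chromosome 12.

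KRT17, a keratin induced in wounded skin, was close to the limit of detection without drug. Its PBS values were 0.599 and 0.157 FPKM in GFP cells, 0.468 and 0.610 in NSE4 cells and 0.208 and 1.03 in SMC5 cells, which the depth estimate puts at 3 to 28 fragments. Its doxorubicin values were 3.86 and 4.99 FPKM in GFP cells, 5.72 and 5.10 in NSE4 cells and 4.35 in SMC5 cells, or 101 to 143 fragments. The PBS libraries of 1 group differed by up to several-fold, but none came near the treated range. The ratio of means was 9.38, and KRT17 rose by 1.99 ± 0.27 in GFP cells (limma, adjusted p = 0.00124), 2.06 ± 0.27 in NSE4 cells (0.00108) and 1.77 ± 0.33 in SMC5 cells (0.00831) on the log2 scale. Its neighbour KRT16, which is usually made in the same wounded epidermis, was at 0.189 to 0.653 FPKM with PBS and 0.424 to 1.79 FPKM with doxorubicin, ranges that overlap, and was not called in any of the 3 cell groups. The 7 KRT17 pseudogene loci that stand alone in the table summed to 0.254 to 0.988 FPKM with PBS and 0.199 to 0.956 FPKM with doxorubicin, so reads shared with them leave the low KRT17 level uncertain.

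KRT23 and the KRT7 locus rose by a smaller factor from a higher level. KRT23, next to KRT20 on chromosome 17, was at 10.6 to 12.6 FPKM with PBS and 25.5 to 30.5 FPKM with doxorubicin, a ratio of means of 2.39. It rose by 1.17 ± 0.10 in GFP cells (limma, adjusted p = 1.97e-04), 1.27 ± 0.10 in NSE4 cells (1.41e-04) and 1.13 ± 0.13 in SMC5 cells (0.00103). The locus of KRT7 and KRT86 was at 6.00 to 9.95 FPKM with PBS and 17.0 to 23.4 FPKM with doxorubicin, a ratio of 2.48. Its libraries scattered more: within NSE4 cells it was at 6.00 and 8.05 FPKM with PBS and at 17.6 and 23.4 FPKM with doxorubicin. The log2 rise was 1.13 ± 0.22 in GFP cells (limma, adjusted p = 0.00686), 1.42 ± 0.22 in NSE4 cells (0.00253) and 1.16 ± 0.27 in SMC5 cells (0.0206). The call for the KRT7 locus was lost without GFP doxorubicin replicate 2 (0.0509) in GFP cells, and without SMC5 replicate 1 (0.0605) or replicate 2 (0.0738) in SMC5 cells. With the compared groups alone the KRT7 locus also lost its call in GFP cells (limma, adjusted p = 0.0503). In SMC5 cells 8 of 12 alternatives kept the call of this locus. Which of KRT7 and KRT86 carried the rise cannot be read from a shared locus.

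KRT8 and KRT18, the filament partners of simple epithelium, moved in opposite directions. KRT8 was at 1205 and 1313 FPKM in GFP cells, 1254 and 1358 in NSE4 cells and 1244 and 1364 in SMC5 cells. With doxorubicin it was at 1501 and 1601 FPKM in GFP cells, 1590 and 1730 in NSE4 cells and 1677 in SMC5 cells. Its log2 change was 0.30 ± 0.09 in GFP cells (limma, adjusted p = 0.0361, called), 0.35 ± 0.09 in NSE4 cells (0.0221, called) and 0.36 ± 0.11 in SMC5 cells (0.0501, not called), and the ratio of means was 1.26. The KRT8 call in GFP cells was lost without any 1 of its 4 libraries (adjusted p = 0.0626 to 0.176). In NSE4 cells it was lost without NSE4 replicate 1 (0.104) or NSE4 doxorubicin replicate 2 (0.124), and in SMC5 cells it was gained without SMC5 doxorubicin column 1 (0.0205). KRT8 was also called in SMC5 cells with a filter at a mean of 5 FPKM (0.0411) or the 12 columns apart (0.0181). Median-ratio scaling (0.00936), the replicate block (0.00232) and quantile normalization (2.93e-04) called it there too. With no filter on low values the KRT8 call was lost in GFP cells (limma, adjusted p = 0.0916) and in NSE4 cells. The compared groups alone also lost it in GFP and NSE4 cells.

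KRT18 was at 604 and 670 FPKM in GFP cells, 618 and 681 in NSE4 cells and 619 and 694 in SMC5 cells without drug. With doxorubicin it was at 391.9 and 430 FPKM in GFP cells, 423 and 462 in NSE4 cells and 437 in SMC5 cells. Every treated sample was below every untreated one. KRT18 fell by 0.63 ± 0.10 on the log2 scale in GFP cells (limma, adjusted p = 0.00285), by 0.55 ± 0.10 in NSE4 cells (0.00526) and by 0.58 ± 0.13 in SMC5 cells (0.0144), and the ratio of means was 0.662. The SMC5 call was lost without SMC5 replicate 2 (0.0639). KRT8 and KRT18 have many processed pseudogenes. Those that stand alone in the table summed to 2.12 to 2.84 FPKM with PBS and 2.57 to 3.65 FPKM with doxorubicin over 48 KRT8 pseudogene loci. The 63 KRT18 pseudogene loci summed to 0.947 to 1.53 FPKM with PBS and 1.55 to 2.68 FPKM with doxorubicin. These sums are small beside the parent genes, but the handling of shared reads is not stated for these files.

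The ratio of KRT8 to KRT18 within a library does not depend on how libraries are scaled by a common factor. It was 1.96 to 2.03 in the 6 PBS samples and 3.72 to 3.84 in the 5 doxorubicin samples, with very little scatter on either side. KRT8 over the KRT15 and KRT19 locus was 0.809 to 0.904 with PBS and 1.30 to 1.39 with doxorubicin. Summed over the 9 loci, the type II members made 0.560 to 0.610 of the type I members with PBS and 0.95 to 0.996 with doxorubicin. The summed FPKM of all 9 loci, in contrast, overlapped, at 3213 to 3826 with PBS and 3098 to 3640 with doxorubicin. The 6 loci outside KRT8, KRT18 and the KRT15 and KRT19 locus summed to 69.8 to 85.9 FPKM with PBS and 102 to 122 FPKM with doxorubicin. KRT8, KRT18 and the KRT15 and KRT19 locus together still supplied 96.6% to 96.7% with the drug. These ratios were computed after the levels were known and are given as a description, and the plot of keratin ratios shows them.

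**Figure D2:**
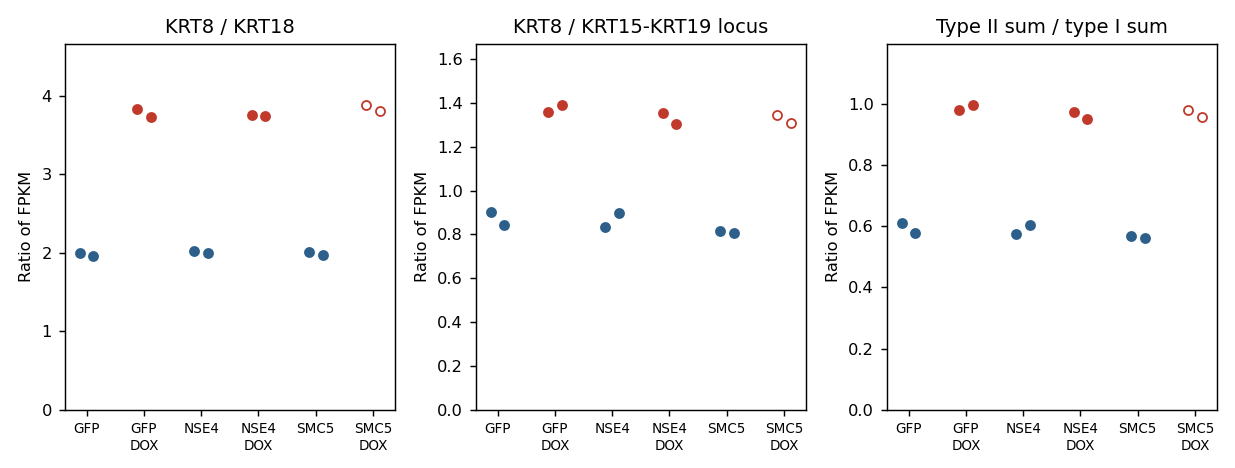
Ratios of keratin FPKM by group, on linear axes from 0: KRT8 over KRT18, KRT8 over the KRT15 and KRT19 locus, and summed type II over summed type I keratins; points are samples (blue PBS, red doxorubicin), and open circles are the near-identical SMC5 doxorubicin columns that were counted as 1 sample. KRT8 over KRT18 was 1.96 to 2.03 in the PBS samples and 3.72 to 3.84 in the doxorubicin samples, and type II over type I was 0.560 to 0.610 and 0.95 to 0.996.

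KRT10 was lower with doxorubicin, and so was the KRT15 and KRT19 locus except under quantile normalization, where its direction reversed. KRT10 was at 46.2 to 62.3 FPKM with PBS and at 32.3 to 38.8 FPKM with doxorubicin, a ratio of means of 0.652. It fell by 0.50 ± 0.12 on the log2 scale in GFP cells (limma, adjusted p = 0.0164), by 0.70 ± 0.12 in NSE4 cells (0.00395) and by 0.57 ± 0.15 in SMC5 cells (0.0299). KRT10 lost its call in GFP cells without GFP replicate 2 (0.0923) or either doxorubicin replicate (0.0613 and 0.0695), and in SMC5 cells without SMC5 replicate 1 (0.0523) or 2 (0.112). For KRT10 in SMC5 cells 8 of 12 alternatives kept the call. The locus of KRT15, a stem cell keratin of stratified epithelium, and KRT19 was at 1333 to 1686 FPKM with PBS and 1103 to 1327 FPKM with doxorubicin. Its log2 change was -0.36 ± 0.10 in GFP cells (limma, adjusted p = 0.0305, called), -0.28 ± 0.10 in NSE4 cells (0.0749) and -0.34 ± 0.13 in SMC5 cells (0.0899), and quantile normalization reversed it to 0.09, 0.19 and 0.08. Leaving out GFP replicate 2 (0.177) or either doxorubicin replicate (0.12 and 0.0836) removed the GFP call, and a call in SMC5 cells was gained without SMC5 doxorubicin column 2 (0.0318). Median-ratio scaling and the replicate block called the lower value in NSE4 cells (0.0245 and 0.0125) and in SMC5 cells (0.0349 and 0.0160), as did the 12 columns apart in SMC5 cells (0.0378). The GFP call of this locus was lost with no filter on low values and with the compared groups alone.

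**Figure D3:**
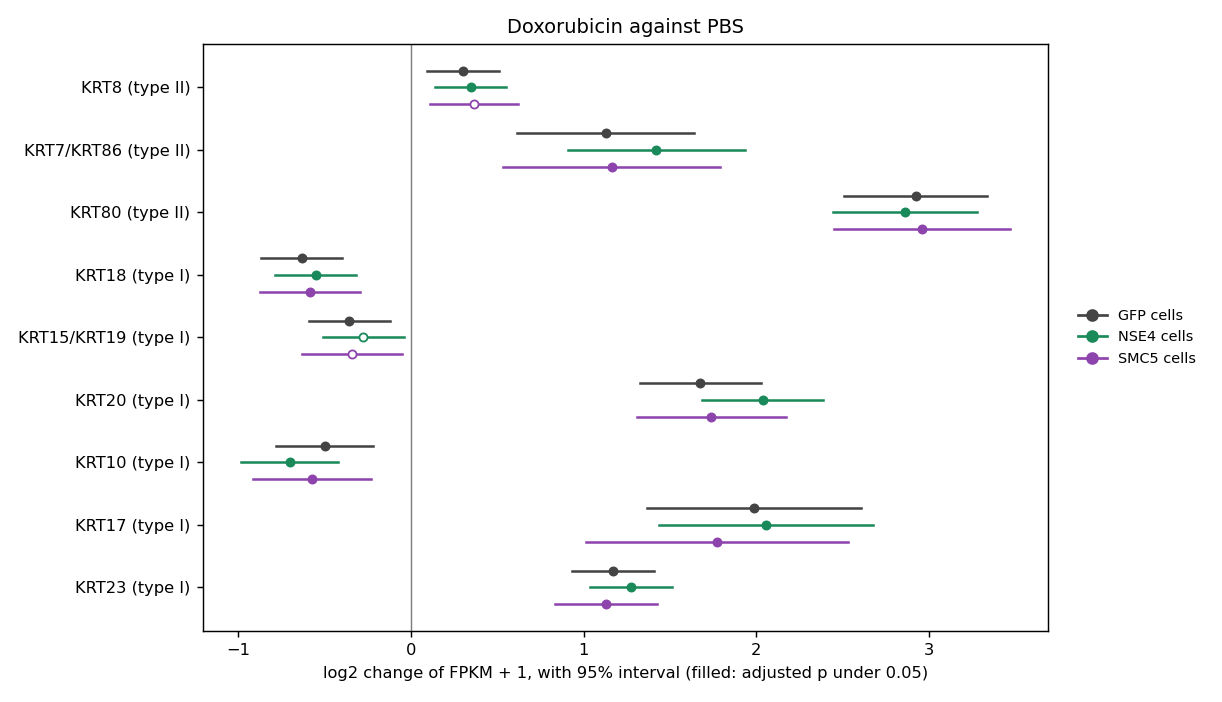
Log2 change in log2(FPKM + 1) with doxorubicin for each keratin locus in GFP, NSE4 and SMC5 cells, with 95% intervals from limma; filled points have an adjusted p under 0.05. KRT80, KRT17 and KRT20 changed most, from 1.68 to 2.96, and KRT18 and KRT10 fell; the KRT15 and KRT19 locus is below 0 here and was above 0 under quantile normalization.

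Neither plasmid moved a keratin past the threshold. NSE4 against GFP cells gave 0 of 9 calls without drug (limma, background 0.0442% of tested loci) and 0 of 9 with doxorubicin (background 0.0568%). SMC5 against GFP cells gave 0 of 9 without drug (background 0%) and 0 of 9 with doxorubicin (background 0.0316%). At an unadjusted p under 0.05 the counts were also 0 of 9 in each. Of all 15833 tested loci, 452 (NSE4, PBS), 489 (SMC5, PBS), 534 (NSE4, doxorubicin) and 476 (SMC5, doxorubicin) reached that level. With shares that small, 0 of 9 does not set the keratins apart from other loci. The largest differences in size were 0.27 for KRT10 (NSE4, PBS), 0.20 for KRT17 (SMC5, PBS), 0.25 for KRT17 (NSE4, doxorubicin) and 0.17 for the KRT15 and KRT19 locus (SMC5, doxorubicin), on the log2 scale. KRT20 was the only locus of the 9, besides the KRT7 locus, that was lower in NSE4 than in GFP cells with PBS, at 0.648 ± 0.209 FPKM against 0.961 ± 0.0273 FPKM (SD, n = 2). That log2 difference was -0.26 with a 95% interval of -0.61 to 0.09. The 95% intervals of all 9 loci over the 4 plasmid comparisons lay between -0.77 and 0.87, and both ends came from KRT17 with doxorubicin. Those of KRT8 lay between -0.16 and 0.37. The size of difference that these libraries do not exclude therefore varied by locus.

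The difference of the drug response between plasmids was tested as an interaction. It was called for 0 of 9 loci with NSE4 (limma, background 0.0316%) and 0 of 9 with SMC5 (background 0.0189%), and for 0 at an unadjusted p under 0.05. Of all 15833 tested loci, 454 (NSE4) and 440 (SMC5) reached that unadjusted level. For KRT20 the response was 0.36 larger in NSE4 than in GFP cells, with a 95% interval of -0.13 to 0.86, and 0.06 larger in SMC5 cells (-0.49 to 0.62). For KRT80 the differences were -0.06 (-0.65 to 0.52) and 0.04 (-0.62 to 0.69). KRT17 in SMC5 cells had a difference of -0.22 (-1.20 to 0.76), the widest interval of the 9 loci. The plot of plasmid effects gives all 9 loci.

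**Figure D4:**
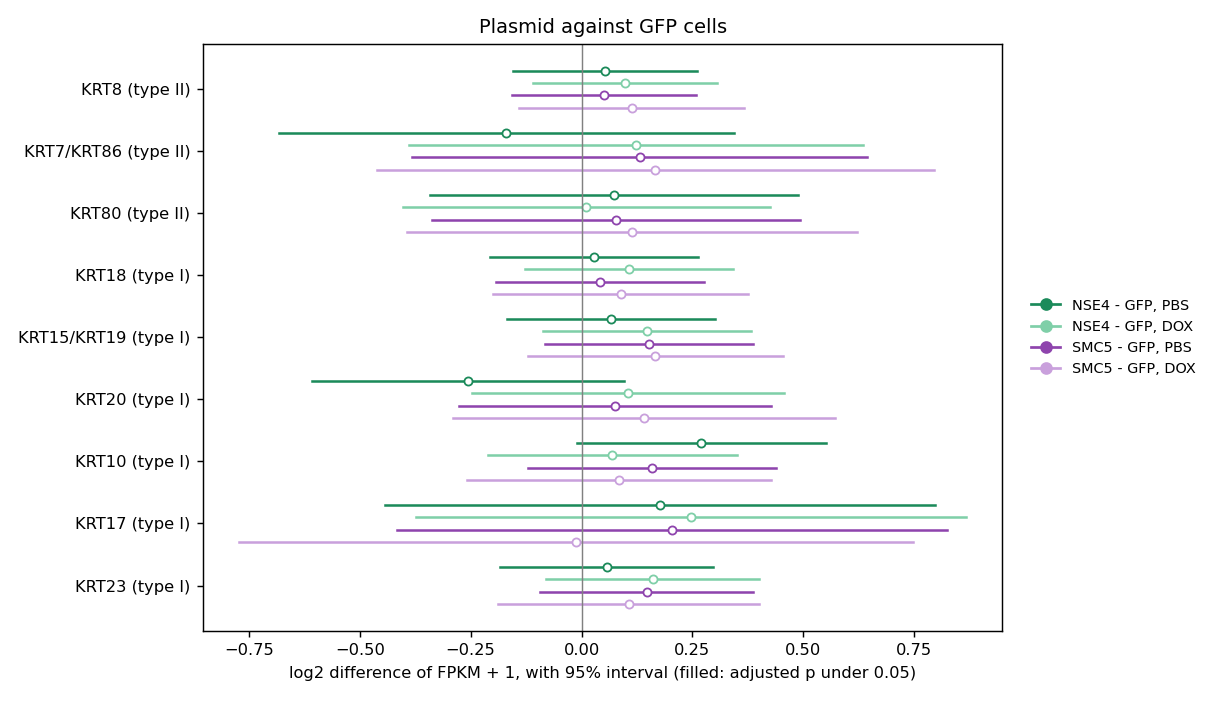
Differences in log2(FPKM + 1) between NSE4 or SMC5 cells and GFP cells, without and with doxorubicin, for each keratin locus, with 95% intervals from limma. Open points, which all are, have an adjusted p of 0.05 or more; every interval includes 0, and the largest difference is 0.27 for KRT10.

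Most other keratins were absent or near the floor. They made up 42 further loci, of which 6 passed the filter and 1 of those, shared with SMARCE1, was left aside. Of the remaining 5 tested loci 2 rose and 1 fell in each of the 3 cell groups, with median log2 changes of 0.51, 0.60 and 0.92. Over all tested loci 17% rose and 14.1% fell in GFP cells, 16.3% and 13.9% in NSE4 cells, and 11% and 9.87% in SMC5 cells, but both loci that rose passed the filter only through doxorubicin values. KRT9, the type I keratin of palm and sole skin, which neighbours KRT19, was at 0.131 FPKM in GFP cells and 1.47 FPKM with doxorubicin, and rose by 1.13, 1.29 and 1.36 in GFP, NSE4 and SMC5 cells (limma, adjusted p = 0.00478, 0.00272 and 0.00810). The locus of the hair keratins KRT81, KRT83 and KRT85 went from 0.660 to 2.34 FPKM in GFP cells and rose by 1.01, 1.36 and 1.15, although its SMC5 call was lost without SMC5 replicate 1 (0.0737). KRT32, a type I hair keratin, fell from 1.79 to 0.641 FPKM in GFP cells, with log2 changes of -0.77, -1.05 and -0.96. In GFP cells the call was lost without either PBS replicate or without doxorubicin replicate 2 (0.0680 to 0.103), and without either SMC5 replicate (0.0883 and 0.0921) in SMC5 cells. KRT13, of wet stratified epithelium such as the oesophagus, was at 4.59 to 9.60 FPKM with PBS and 2.90 to 7.46 FPKM with doxorubicin and was not called. KRT9, KRT16 and the KRT81 locus passed the filter only through doxorubicin values. KRT32 passed only through PBS values, at 1.53 to 2.63 FPKM against 0.441 to 0.751 FPKM with doxorubicin. The counts of rises and falls among these loci therefore do not describe all keratins.

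Proteins that anchor keratin filaments did not follow 1 direction. Of 11 tested partners (plakins, desmosomal proteins and plakophilins) 1 rose and 4 fell in GFP cells, 2 rose and 3 fell in NSE4 cells, and 1 rose and 2 fell in SMC5 cells, with median log2 changes of -0.30, -0.25 and -0.27. Over all tested loci the shares that rose were 17%, 16.3% and 11%, and those that fell 14.1%, 13.9% and 9.87%. EPPK1, epiplakin, a plakin that binds and bundles keratin filaments, went from 19.8 ± 0.776 to 58.5 ± 6.11 FPKM (SD, n = 2) in GFP cells and rose by 1.51, 1.70 and 1.71 (limma, adjusted p = 1.45e-04, 9.27e-05 and 4.12e-04). DST, dystonin, whose epithelial form ties keratins to hemidesmosomes, went from 46.8 ± 1.63 to 15.4 ± 1.81 FPKM and changed by -1.54, -1.37 and -1.59 (adjusted p = 8.08e-05, 1.44e-04 and 3.83e-04). The locus does not separate the forms of DST. DSG2, a desmosomal cadherin, fell in each cell group (-0.45, -0.50 and -0.55), but lost its call without GFP replicate 1 (0.101), GFP doxorubicin replicate 2 (0.0841), NSE4 replicate 2 (0.0607), NSE4 doxorubicin replicate 2 (0.0753) or SMC5 replicate 1 (0.105). PKP3, plakophilin, called in GFP and NSE4 cells (-0.48 and -0.44), lost the call without any library of NSE4 cells (0.106 to 0.157). In GFP cells PKP3 lost it without GFP replicate 1 (0.161) or either doxorubicin replicate (0.138 and 0.0549). DSP, desmoplakin, which links keratins to desmosomes, had a log2 change of -0.30 in GFP cells (adjusted p = 0.0476) and lost that call without any 1 of the 4 libraries (0.0820 to 0.215). PPL, periplakin, called in NSE4 cells with 0.49 (0.0453), lost that call without any 1 of the 4 NSE4 libraries (0.0863 to 0.190).

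Among 9 tested loci of other intermediate filaments, 2 rose in GFP cells, 3 rose and 1 fell in NSE4 cells and 2 rose in SMC5 cells, with median log2 changes of 0.28, 0.14 and 0.40. Such counts are near the shares of all tested loci that were called either way, 31.1%, 30.2% and 20.9%. SYNM, synemin, a linker of intermediate filaments in muscle, was at 1.93 FPKM in GFP cells and 5.71 with doxorubicin and rose by 1.19, 1.09 and 1.07 (limma, adjusted p = 8.21e-04, 0.00127 and 0.00542). NES, nestin, of neural precursors, rose by 0.41, 0.59 and 0.51. The NES call was lost without either GFP replicate or GFP doxorubicin replicate 2 (0.0869 to 0.126) in GFP cells, and without either SMC5 replicate or SMC5 doxorubicin column 2 (0.0665 to 0.119) in SMC5 cells. VIM, vimentin, the filament of mesenchymal cells, had group means of 2.15 FPKM in GFP cells and 1.45 with doxorubicin, and was not called. GFAP (0.75) and LMNB1 (-0.76), an astrocyte filament and a nuclear lamin, were called in NSE4 cells. GFAP lost the call without any 1 of the 4 libraries (0.0926 to 0.119), and LMNB1 without NSE4 replicate 2 (0.123) or either NSE4 doxorubicin replicate (0.135 and 0.0562).

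Few other genes of intestinal differentiation were expressed beside KRT20. Of a list of 20, 4 were tested, and CA2 and VIL1 rose in each of the 3 cell groups, with none falling and medians over the 4 of 0.94, 1.13 and 1.30. Of all tested loci 17%, 16.3% and 11% rose, and VIL1 entered only through its doxorubicin values. CA2, a carbonic anhydrase of mature colonocytes, went from 24.5 ± 0.852 to 138 ± 4.73 FPKM (SD, n = 2) in GFP cells, with log2 changes of 2.45, 2.44 and 2.48 (limma, adjusted p = 1.14e-05, 2.36e-05 and 5.32e-05). VIL1, villin, which bundles actin in microvilli, was at 0.0970 ± 0.0620 FPKM and at 1.81 ± 0.871 FPKM with doxorubicin, with changes of 1.32, 1.35 and 1.36, and its SMC5 call was lost without SMC5 replicate 1 (0.0567). CDX2, the intestinal homeobox factor, was at 2.997 to 6.98 FPKM with PBS and 3.58 to 4.71 FPKM with doxorubicin and was not called. ISX, an intestinal homeobox gene whose locus is shared with a noncoding RNA, was not called either. CDX1 stood at 0 in 9 of 11 samples, as given above.

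Genes of squamous differentiation were included because KRT10 and KRT17 belong to stratified epithelium. Of 14 listed genes 4 were tested, with 2 rising and 1 falling in each of the 3 cell groups and medians of 0.53, 0.72 and 0.57. The shares of all tested loci called either way were 31.1%, 30.2% and 20.9%. SFN, stratifin, a 14-3-3 protein of epithelial cells, went from 212 ± 30.1 to 635 ± 90.8 FPKM (SD, n = 2) in GFP cells, with log2 rises of 1.58, 1.58 and 1.65 (limma, adjusted p = 3.21e-04, 3.08e-04 and 0.00123). CNFN, cornifelin, of the cornified envelope, rose by 0.87, 1.15 and 0.81. KLK10, a secreted protease, fell from 17.2 to 9.33 FPKM in GFP cells, with log2 changes of -0.81, -0.83 and -0.90, and lost its call without GFP replicate 2 (0.0551) and SMC5 replicate 2 (0.0680). KLK6, another protease of the family, was not called. The plot of related genes collects the 5 lists.

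**Figure D5:**
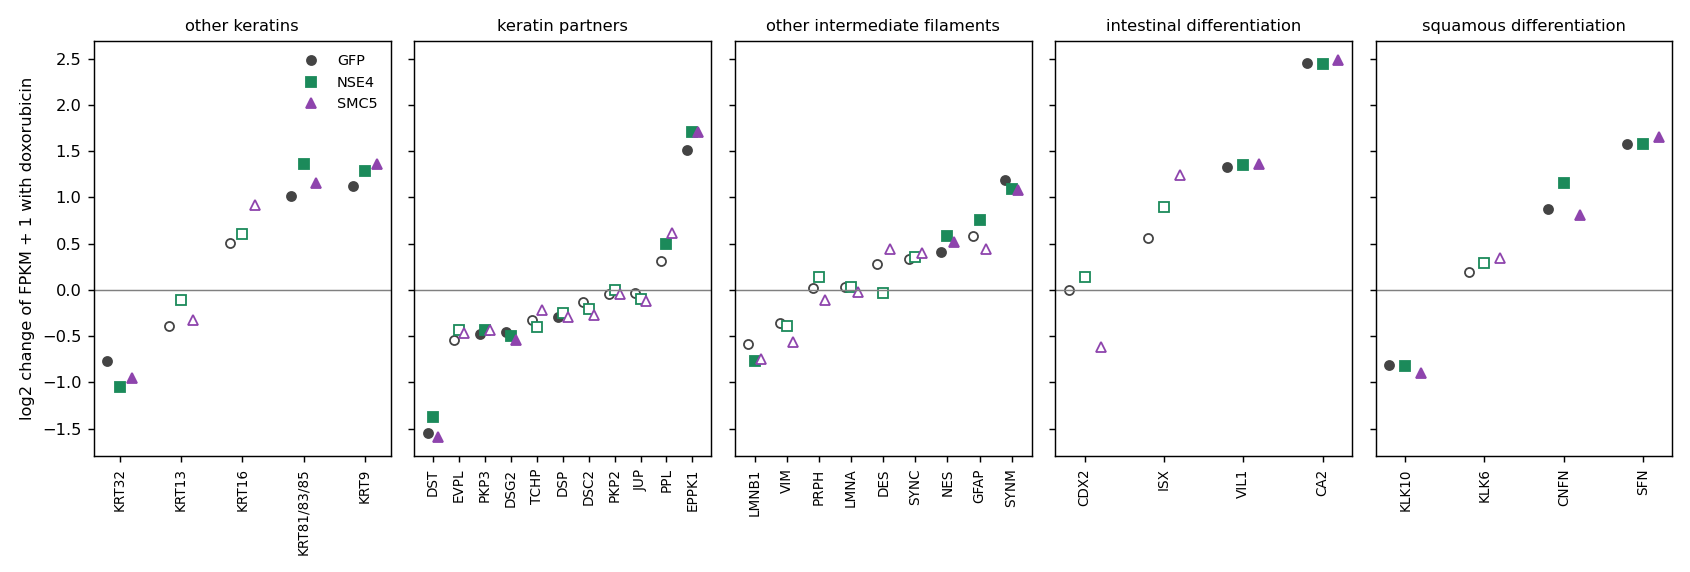
Log2 change with doxorubicin of the tested genes in the lists of keratin partners, other intermediate filaments, intestinal genes, squamous genes and other keratins; circles are GFP cells, squares NSE4 cells and triangles SMC5 cells, filled where the adjusted p is under 0.05. CA2 and EPPK1 lie above 0 in all 3 cell groups and DST below 0.

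The loci whose log2(FPKM + 1) followed a keratin most closely over the 11 samples are given as a description, since the samples share the split into PBS and doxorubicin. For KRT20 these were AC025423.4 (Pearson r = 0.994), CCDC82, APAF1, a caspase activator of the apoptosome, ZNF440 and S100A2, a calcium-binding protein of epithelia (r = 0.991), and 717 of 12315 loci with a single name reached at least 0.95. For KRT80 the closest was PGF, placental growth factor (0.999), then CDIP1 and TAP1, among 1030 loci. KRT17 was closest to AP4E1, TRIAP1 and DUSP14, and the KRT7 locus to RABL2B, UQCC3 and TGS1. Among the keratins that were lower with the drug, KRT18 was closest to CHCHD6, RPL8, a ribosomal protein gene, and ATF4, a stress transcription factor, and KRT10 to TADA3, PPDPF and KTN1-AS1. KRT8 was closest to CLTB, a clathrin light chain, B3GAT3 and MAFF. KRT8, KRT18, KRT80 and the KRT15 and KRT19 locus were also higher in the library numbered 2 in 5 of 5 groups, with the SMC5 doxorubicin pair left out. How many of all tested loci did the same was not counted, so this is not a trait particular to keratins.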

How the data were processed

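Messenger RNA libraries of HCT116 cells in 6 groups were deposited as FPKM values per locus, and per the submitters' processing notes the authors used TopHat and Cufflinks. Versions, genome build, annotation and the handling of reads shared between genes are not given in the sources used here. All 12 columns were read; the near-identical columns of doxorubicin-treated SMC5 cells were averaged, giving 11 samples. Fragment totals were estimated from the smallest FPKM steps among transcripts of at least 1500 bases, so FPKM values of KRT20 and KRT17 without drug rest on few fragments.

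Values were tested as log2(FPKM + 1) with limma 3.58.1 in R 4.3.3, all 6 groups in 1 fit with an intensity trend, for loci with at least 1 FPKM in at least 2 samples (15833). P-values were adjusted by Benjamini-Hochberg over all tested loci within each of 9 comparisons, with a threshold of 0.05. The script was tested on simulated data. The members and lists were chosen with earlier results of these data known. Named were the 10 keratins, other tested keratin loci, up to 4 called members of each list, and the 5 (KRT20) or 3 loci closest by correlation (those of KRT23 are not reported here); list members named as not called (VIM, CDX2, ISX, KLK6) and PPL and DSP were added after their values were seen. Loci shared with another coding gene were left out of the lists. Alternatives were another pseudocount, 2 filters, 2 scalings, a replicate block, the compared groups alone, 12 separate columns, and each library left out. Tables were made in Python 3.11.15 (numpy 2.4.6, pandas 2.3.3) and drawn with matplotlib 3.10.9. Promoter sequences and gene neighbours came from RefSeq tables.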

Additional observations from a re-analysis of the deposited data

How the results depend on the processing

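Over the 27 drug responses of keratin loci, 269 of the alternative values kept direction and side of the threshold, 34 lost the call, 12 gained it and 3 reversed. The 3 reversals were the KRT15 and KRT19 locus under quantile normalization, with log2 changes of 0.0933 (GFP), 0.188 (NSE4) and 0.0783 (SMC5 cells). Leaving out 1 library gave 5 to 8 called keratin loci in GFP cells, 7 to 8 in NSE4 cells and 4 to 8 in SMC5 cells. With the compared groups alone the SMC5 count was 0 of 9; that fit has 3 samples and called 0 of all tested loci. It called 1734 rises and 1434 falls over all loci in GFP cells and 1355 and 1082 in NSE4 cells, against 2691 and 2228, and 2575 and 2205. Taking the 12 columns as separate samples gave 3146 rises and 2699 falls in SMC5 cells, against 1747 and 1563. The filter at a mean of 5 FPKM removed KRT20 and KRT17. With no filter on low values 7, 7 and 5 keratin loci were called in GFP, NSE4 and SMC5 cells. Over 33654 loci that setting called 2596 rises and 1889 falls in GFP cells. It called 2509 and 1820 in NSE4 cells, and 2309 and 1276 in SMC5 cells. Correlations across loci of replicate differences (number 2 less number 1) ran from -0.039 to 0.073 over 10 pairs of groups. Of 10 libraries 8 correlated best with their own number, but the 2 deviations of a group mirror each other, so each group counts double. KRT8, KRT18, KRT80 and the KRT15 and KRT19 locus were higher in number 2 in 5 of 5 groups (without the SMC5 doxorubicin pair), as given above. These values do not settle whether replicate numbers pair the samples. With the replicate block 9 keratin loci were called in each cell group. The additions were KRT8 in SMC5 cells (limma, adjusted p = 0.00232) and the KRT15 and KRT19 locus in NSE4 (0.0125) and SMC5 cells (0.0160). The block also raised the calls over all 15833 tested loci. It called 3218 rises and 2695 falls in GFP cells, 3132 and 2677 in NSE4 cells, and 2329 and 2051 in SMC5 cells. KRT8 was higher with the drug under every scaling (0.74, 0.81 and 0.80 with quantile normalization).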
